A study of Mus musculus with 24 samples.

Results

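The cytosolic ribosomal proteins are the protein subunits of the ribosome that translates nuclear mRNAs. Here they are the genes whose official mouse symbol is Rpl or Rps with a number, together with the stalk genes Rplp0, Rplp1 and Rplp2 and the small subunit gene Rpsa. Of 45281 probes on the array, 92 carried 1 such symbol and no other, and they named 62 genes. Of these, 77 probes of 56 genes were detected often enough to be tested, among 18346 probes and 9917 genes in all. Probes of Rpl14, Rpl17, Rpl39l, Rpl6, Rps20 and Rps23 were not, and these 6 genes have no result. Among the protein-coding genes listed by RefSeq for mouse, 84 fit the same naming rule, and 23 of them have no such probe and are not analysed here.

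The samples were bone marrow-derived macrophages (BMMs) of male C57BL/6 mice aged 5 weeks, kept for 72 h in M-CSF at 30 ng/mL, the growth factor of macrophages. RANKL, the cytokine that turns BMMs into osteoclasts, was then added to the M-CSF at 100 ng/mL. Total RNA of cells that had spent 0, 24, 48 or 72 h in RANKL was hybridised to Illumina bead arrays, and there are 6 of them per time. BMMs kept in M-CSF alone to the later times are not among the samples, so RANKL and time in culture cannot be told apart, and since no label ties the 6 arrays per time to different mice or dishes, the p-values measure a spread that may be technical.

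A ribosome has a small subunit, which reads the mRNA, and a large subunit, which joins amino acids and carries a flexible stalk that recruits the elongation factors. Each ribosome holds 1 copy of nearly every ribosomal protein, and proteins made in excess are degraded. The mRNAs of these genes begin with a run of C and T letters at the cap, the TOP motif, through which the kinase mTORC1 adjusts their translation. The arrays measure mRNA amounts and not translation. Some members have a near copy, such as Rpl22 and Rpl22l1, and the family has very many processed pseudogenes, so a probe may also read copies that its annotation does not name.

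The starts of 5 genes whose values are described further on are shown because a TOP motif would lie there. Of the 62 genes, 51 were found by symbol in the RefSeq promoter table (GRCm38.p6), which holds 250 bases before and 50 bases after each start, and the first start listed was used. The windows below run from 40 bases before to 20 bases after that start, 5′ to 3′ on the strand of the gene, and capitals mark the longest run of C and T, for Rps27l the first of 2 runs of 9 letters, the other of which begins 12 bases before the start. They lie at chr4:152325686-152325745 (plus strand) for Rpl22, chr9:66946046-66946105 (plus) for Rps27l, chr4:86857348-86857407 (minus) for Rps6, chr5:115559427-115559486 (plus) for Rplp0 and chr7:45128726-45128785 (minus) for Rpl13a.
Rpl22: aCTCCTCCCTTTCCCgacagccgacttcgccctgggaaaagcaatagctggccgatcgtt
Rps27l: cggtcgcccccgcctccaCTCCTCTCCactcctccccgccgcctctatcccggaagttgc
Rps6: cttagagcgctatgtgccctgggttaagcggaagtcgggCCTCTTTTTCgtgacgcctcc
Rplp0: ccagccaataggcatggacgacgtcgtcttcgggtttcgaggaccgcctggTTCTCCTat
Rpl13a: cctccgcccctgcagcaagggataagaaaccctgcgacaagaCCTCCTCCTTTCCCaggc
The run of Rps6 spans the listed start itself, from 1 base before it. In contrast, the longest run of Rpl22 begins 39 bases before the start, the marked run of Rps27l 22 bases before it, and that of Rplp0 12 bases into the transcript. Capitals mark length only, and a run away from the start is not taken as a TOP motif.

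A run of at least 8 C or T letters on the gene strand within 30 bases of the start was found for 25 of the 51 members (49%) and for 22.8% of 27025 genes in the table. The letters CCGGAA, which ETS factors such as GABPA read, were present on either strand in the whole 300-base window of 51% of the members and 15.2% of all genes. For GGGCGG, the GC box, the shares were 62.7% and 35.9%, and for AAGATGG, the core read by YY1, they were 13.7% and 6.48%. TATAAA was found in 9.8% and 14.2%, and CACGTG, the E-box that Myc and Max bind, in 9.8% and 7.24%. Overlaps between these motifs were not counted, and a match is a description of the letters only.

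Most ribosomal protein genes stayed close to their level at 0 h. Signals are given on the log2 scale after quantile normalization over the 24 arrays, and changes are differences of log2 means with their standard error (SE). Of 56 genes, 39 lay within 0.3 of their mean at 0 h at all 3 later times, and 20 passed the test at none of them. The same counts were not made over all genes, so no background share stands beside them. The test was limma with Benjamini-Hochberg adjustment over 9917 genes, and a gene was called at an adjusted p under 0.05. The median size of the change among the members, whatever its sign, was 0.09 at 24 h, 0.14 at 48 h and 0.12 at 72 h, beside 0.23, 0.28 and 0.30 over all genes. In bulk samples of this kind, fewer cells of a type and less RNA per cell cannot be told apart.

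**Figure D1:**
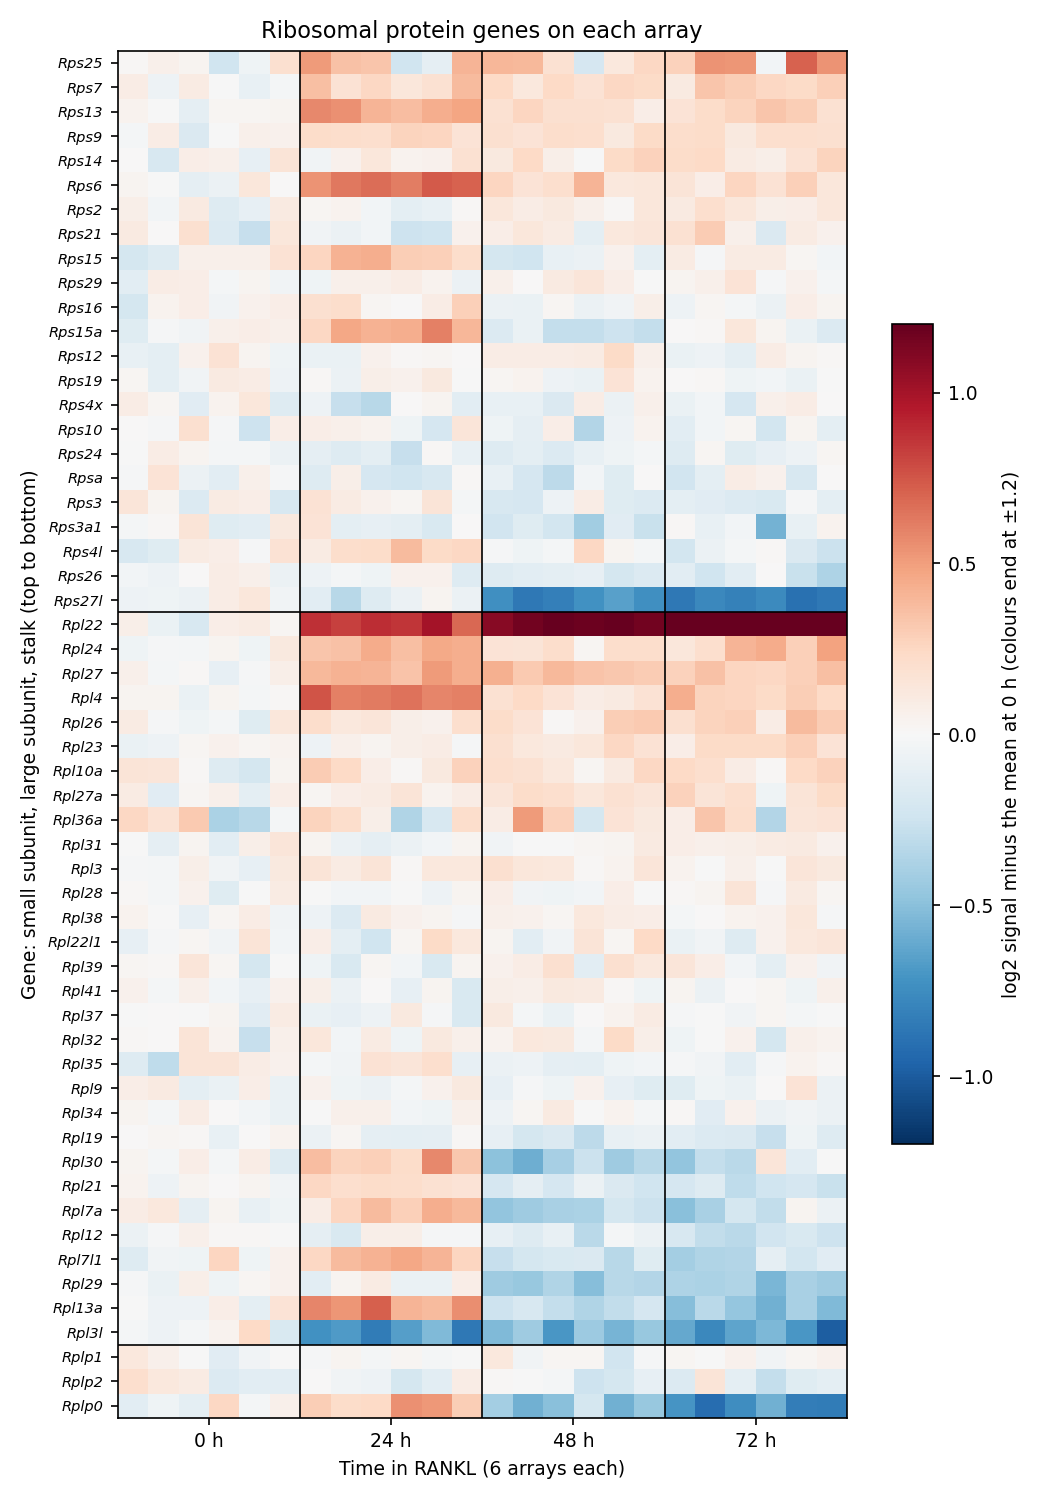
Each row is 1 of the 56 genes and each column 1 of the 24 arrays, in order of time, and the colour is the log2 signal minus the mean of the gene at 0 h. Most rows are pale, Rpl22 is dark red at each later time, and Rps27l and Rplp0 are blue at 48 h and 72 h.

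At 24 h, 21 of the 56 genes were higher than at 0 h and 3 were lower, which is 42.9% of them, whereas 67.0% of all genes were called. The background share was 29.2% for higher calls and 37.8% for lower calls. The fitted change reached 1.5-fold upward in 3 called members (Rpl22, Rps6 and Rpl4) and downward in 1 (Rpl3l, detected on 0 of 6 arrays at 24 h, for which only a fall of at least 1.36-fold is measured), beside 8.29% and 9.71% of all genes that were higher and lower by that much. A fold of at least 1.2 in either direction was reached by 14 called members, where 46.4% of all genes reached it. The 6 arrays at 24 h lay above all 6 at 0 h for 13 members and below them for 1, and 46.8% of all genes did not overlap. The median change was 0.03 over the members and -0.05 over all genes.

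The direction of the small changes depended on how the arrays were scaled. With each array scaled to its 75th percentile, 12 members were higher and 24 lower at 24 h, and the median change was -0.13 over the members and also -0.13 over all genes. Median scaling gave 16 higher and 7 lower, the authors' processed values 17 and 7, and cyclic loess 30 and 1. Here and below, counts under another scaling are given without the share of all genes called under it. Such a split is therefore not read as particular to the members. Under all 6 scalings run, quantile and normexp included, 12 genes were called higher at 24 h (Rpl13a, Rpl21, Rpl22, Rpl24, Rpl27, Rpl4, Rpl7l1, Rplp0, Rps13, Rps15a, Rps4l and Rps6) and 1 lower (Rpl3l). This rule was run on the members only, here and below, so no share of all genes stands beside these counts.

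At 48 h, 15 members were higher and 15 lower than at 0 h, or 53.6%, where 72.4% of all genes were called (33.1% higher and 39.2% lower). At least 1.5-fold changes were limited to Rpl22, which was higher, and Rps27l, which was lower, beside 10.8% of all genes higher and 12.2% lower by as much. A fold of at least 1.2 was reached by 9 called members and 52.6% of all genes. Groups did not overlap for 8 higher and 9 lower members, against 53.4% of all genes in either direction. At 72 h, 15 were higher and 13 lower, leaving 28 uncalled, where 73.5% of all genes were called (34.2% higher and 39.4% lower). The fitted change at that time reached 1.5-fold upward in Rpl22 and downward in Rps27l, Rplp0 and Rpl3l (the last detected on 0 of 6 arrays at 72 h, with a measured fall of at least 1.33-fold), beside 11.7% of all genes higher and 13.7% lower by as much. A fold of at least 1.2 was reached by 11 called members and 54.5% of all genes, and groups did not overlap for 8 higher and 7 lower members, against 54.4% of all genes.

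The split between higher and lower at these times moved with the scaling as well. At 48 h it was 2 higher and 22 lower with the 75th percentile, 2 and 21 with the median, 4 and 19 with the authors' processed values, and 26 and 13 with cyclic loess. At 72 h it was 2 and 23, 1 and 22, 8 and 18, and 29 and 10 in the same order. Under all 6 scalings 2 members were higher at 48 h (Rpl22 and Rpl27) and 11 lower (Rpl13a, Rpl19, Rpl29, Rpl30, Rpl3l, Rpl7a, Rpl7l1, Rplp0, Rps15a, Rps27l and Rps3a1). At 72 h only Rpl22 was higher under all of them, and 10 were lower (Rpl12, Rpl13a, Rpl19, Rpl21, Rpl29, Rpl3l, Rpl7a, Rpl7l1, Rplp0 and Rps27l).

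Between 48 h and 24 h, 7 members were higher at 48 h and 20 lower, or 48.2%, where 73.8% of all genes were called (39.2% higher and 34.6% lower). At least 1.5-fold changes were seen in 6 members, all lower, beside 14.8% of all genes higher and 14.1% lower by as much, and at least 1.2-fold changes in 14 members and 55.7% of all genes. The arrays of both times did not overlap for 3 members that were higher and 14 that were lower, against 57.1% of all genes. The split was 10 and 18 with the 75th percentile, 3 and 23 with the median, 4 and 19 with the authors' processed values, and 10 and 20 with cyclic loess. Under all 6 scalings 18 members were lower and 3 higher (Rpl22, Rps2 and Rpl3l, the last detected on 1 of 6 arrays at 48 h and 0 of 6 at 24 h, so that no fold can be given for it). Between 72 h and 48 h few members differed: 6 were higher at 72 h and 5 lower, or 19.6%, where 36.8% of all genes were called (17.5% higher and 19.4% lower). No member changed by 1.5-fold, a size at which 1.10% of all genes were higher and 2.63% lower, and 2 changed by at least 1.2-fold, against 16.8% of all genes. The arrays did not overlap for 1 member, against 19.5% of all genes. The count of calls was 7 without replicate 1 and 7 without replicate 2, and under all 6 scalings Rpl22 and Rps15a were higher and Rpl13a and Rplp0 lower.

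By the probe that stands for each gene, Rpl22 rose most at each later time. It encodes an RNA-binding protein of the large subunit that cells can do without for general translation but that mice need to make alpha-beta T cells. Its log2 signal (lowest, median and highest array) was 8.98, 9.23 and 9.27 before RANKL, 9.86, 10.04 and 10.18 after 24 h, 10.27, 10.34 and 10.42 after 48 h, and 10.68, 10.77 and 10.84 after 72 h. The arrays of no 2 times overlapped, and each later time was the higher. The change from 0 h was 0.85 ± 0.053 (SE) at 24 h, or 1.81-fold (adjusted p = 1.86e-16 from limma), 1.17 at 48 h, or 2.25-fold (adjusted p = 1.07e-20), and 1.59 at 72 h, or 3.02-fold (adjusted p = 7.15e-25). Over the 6 scalings these changes ran from 0.80 to 0.95, from 1.08 to 1.22 and from 1.46 to 1.65.

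Rpl22l1, the paralog that can take the place of Rpl22, did not pass the test at any time. Its probe was dim, with a median log2 signal of 7.06 at 0 h, 7.14 after 24 h, 7.11 at 48 h, and 7.09 after 72 h, and it was detected on 16 of 24 arrays. The differences from 0 h were 0.02, 0.05 and 0.01, each with an SE of 0.068. The arrays of all 4 times overlapped.

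Rps27l encodes a paralog of the small subunit protein Rps27 and is a p53 target in human cells. By the probe that stands for each gene it had the lowest change at 48 h and 72 h with quantile normalization, although a dimmer probe of Rpl38 fell further. Over the 6 scalings its change at 72 h ran from -1.01 to -0.74, and that of Rplp0 from -0.89 to -0.75. Its log2 signal was 14.29, 14.31 and 14.49 at 0 h, 14.03, 14.26 and 14.39 after 24 h, 13.50, 13.62 and 13.70 at 48 h, and 13.46, 13.53 and 13.60 after 72 h. The arrays at 48 h and 72 h were all below those of the earlier times, while those at 24 h overlapped with 0 h. Its change was -0.76 ± 0.05 (SE) at 48 h, or 1.69-fold lower (adjusted p = 7.43e-16), and -0.83 at 72 h, or 1.77-fold lower (adjusted p = 4.94e-17). At 24 h it was -0.12 (adjusted p = 0.0345), a call that not every scaling made.

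**Figure D2:**
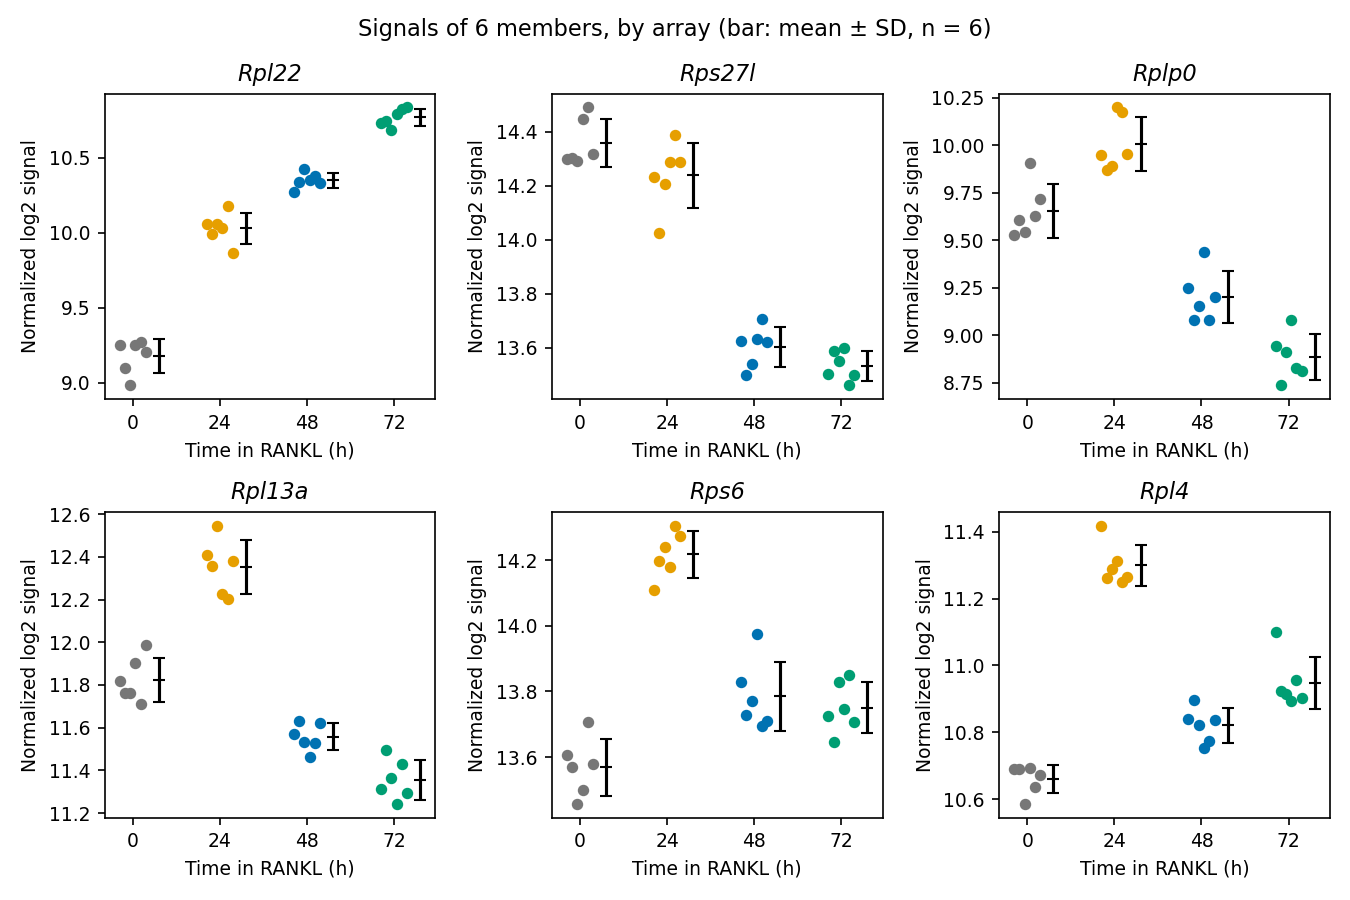
Points are the normalized log2 signals of the 6 arrays at each time in RANKL and bars the mean ± SD, for 6 of the members with the largest changes, each on its own scale. Rpl22 climbs at each time, Rps27l drops between 24 h and 48 h, Rplp0 and Rpl13a are highest at 24 h and lowest at 72 h, and Rps6 and Rpl4 peak at 24 h.

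Rplp0, which forms the base of the stalk and is a common reference gene in RT-qPCR, was higher at 24 h and lower afterwards. Its log2 signal was 9.53, 9.62 and 9.91 at 0 h, 9.87, 9.95 and 10.20 after 24 h, 9.08, 9.18 and 9.44 at 48 h, and 8.74, 8.87 and 9.08 after 72 h. Arrays at 48 h and 72 h were all below those at 0 h, and those at 24 h overlapped slightly with 0 h. The change was 0.35 ± 0.071 (SE) at 24 h (adjusted p = 4.11e-05), -0.45 at 48 h (adjusted p = 5.71e-07) and -0.77 at 72 h, or 1.70-fold lower (adjusted p = 4.02e-12). A further Rplp0 probe was not detected on any array.

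The other stalk proteins, Rplp1 and Rplp2, bind to Rplp0 as dimers, and neither gene was called at any time. Rplp1 had a median log2 signal of 14.93, 14.93, 14.94 and 14.95 at 0, 24, 48 and 72 h, with changes of 0.00, -0.02 and 0.02. Rplp2 had medians of 14.54, 14.51, 14.50 and 14.42, with changes of -0.06, -0.10 and -0.11. Their arrays overlapped throughout. Their probes were much brighter than that of Rplp0, with highest deposited signals of 36419 and 30261 against 1256, and levels of different probes cannot be set against each other.

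Rpl13a encodes a large subunit protein that, in human monocytes given interferon gamma, leaves the ribosome to silence inflammatory mRNAs, and the gene also carries small nucleolar RNAs in its introns. Its log2 signal was 11.71, 11.79 and 11.99 at 0 h, 12.20, 12.37 and 12.55 after 24 h, 11.46, 11.55 and 11.63 at 48 h, and 11.24, 11.34 and 11.50 after 72 h. All arrays at 24 h were above those at 0 h, and all arrays at 48 h and 72 h below them. The change was 0.53 ± 0.056 (SE) at 24 h (1.44-fold, adjusted p = 1.9e-10), -0.27 at 48 h (adjusted p = 6.95e-05) and -0.47 at 72 h (adjusted p = 2.58e-09).

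Calls higher at 24 h and lower at 48 h than at 0 h were made for 7 of the 56 members (Rplp0, Rpl13a, Rpl30, Rpl7a, Rpl7l1, Rpl21 and Rps15a) and for 11.8% of all genes, a like share. Both comparisons share the arrays at 0 h. Rpl30, a large subunit protein whose yeast counterpart limits the splicing of its own transcript, changed by 0.34 at 24 h (adjusted p = 0.000122), -0.41 at 48 h (adjusted p = 6.37e-06) and -0.18 at 72 h (adjusted p = 0.0305). Rpl7l1, a paralog of Rpl7, changed by 0.36, -0.22 and -0.26 (adjusted p = 2.21e-06, 0.0015 and 0.000197). Its second-highest probe changed by -0.03 at 24 h and 0.03 at 72 h, so the rise at 24 h and the fall at 72 h were not seen with that probe. Rpl7a, Rpl21 and Rps15a changed by 0.31, 0.21 and 0.43 at 24 h and by -0.36, -0.17 and -0.22 at 48 h. Because the 7 were chosen by opposite calls at 24 h and 48 h, a fall between both times was set beforehand with quantile normalization. It is no separate result. All 7 were lower at 48 h than at 24 h under all 6 scalings, each of which used the probe that stands for the gene. The 24 h call held under all of them for 5 (not for Rpl7a and Rpl30), and the 48 h call for 6 (not for Rpl21).

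Rps6, the small subunit protein that S6 kinase phosphorylates downstream of mTORC1, was highest at 24 h. Its log2 signal was 13.46, 13.57 and 13.71 at 0 h, 14.11, 14.22 and 14.30 after 24 h, 13.70, 13.75 and 13.98 at 48 h, and 13.65, 13.74 and 13.85 after 72 h. Every array at 24 h was above every array of the other times. The change was 0.65 ± 0.05 (SE) at 24 h, or 1.57-fold (adjusted p = 5.9e-14), and 0.22 and 0.18 at 48 h and 72 h (adjusted p = 0.000231 and 0.00148). Under the 6 scalings the change at 24 h ran from 0.39 to 0.65, but those at 48 h and 72 h ran from -0.05 to 0.22 and from -0.06 to 0.21, so their direction was not settled.

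Rpl4, part of the wall of the tunnel through which the new protein leaves, was also highest at 24 h. Its log2 signal was 10.59, 10.68 and 10.69 at 0 h, 11.25, 11.28 and 11.42 after 24 h, 10.75, 10.83 and 10.90 at 48 h, and 10.89, 10.92 and 11.10 after 72 h. The arrays of each later time were all above those at 0 h, and those at 24 h were above all others. The change was 0.64 ± 0.045 (SE) at 24 h, or 1.56-fold (adjusted p = 5.64e-15), 0.16 at 48 h (adjusted p = 0.00198) and 0.29 at 72 h (adjusted p = 6.11e-07). The later calls were not made under every scaling, with changes of 0.04 to 0.22 at 48 h and 0.11 to 0.35 at 72 h.

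Other risers moved less. Rps13, a small subunit protein, changed by 0.47, 0.18 and 0.24 at 24, 48 and 72 h (adjusted p = 6.92e-12, 0.000317 and 4.91e-06). Rpl27, a large subunit protein, changed by 0.42, 0.35 and 0.30 (adjusted p = 2.06e-11, 1.04e-09 and 3.34e-08), and Rpl24, which reaches across to the small subunit, by 0.40, 0.16 and 0.33 (adjusted p = 1.94e-08, 0.0055 and 7.34e-07). Rps7, which can bind Mdm2, the ligase of p53, changed by 0.25, 0.21 and 0.25, and Rps9 by 0.22, 0.19 and 0.19, with no overlap with 0 h at any later time. For Rps7 and Rps9 the calls were not made under every scaling, and neither were the 48 h and 72 h calls of Rps13 and Rpl24. At 48 h the change ran from -0.01 to 0.23 for Rps7, from -0.07 to 0.18 for Rps13 and from -0.04 to 0.18 for Rpl24, so that its sign was not settled.

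Among the genes that fell, Rpl29, a small basic protein of the large subunit, had a log2 signal of 13.39, 13.48 and 13.54 at 0 h, 13.34, 13.45 and 13.57 after 24 h, 12.96, 13.07 and 13.14 at 48 h, and 12.92, 13.09 and 13.11 after 72 h. Its arrays at 48 h and 72 h were below all of those at 0 h and 24 h. The change was -0.01 at 24 h (adjusted p = 0.825) and -0.41 ± 0.047 (SE) at both 48 h (adjusted p = 1.03e-09) and 72 h (adjusted p = 7.33e-10). Rpl3l, the striated muscle paralog of Rpl3, was near the limit of detection, with detection on 6 of 6 arrays at 0 h, 1 of 6 at 48 h and 0 of 6 at 24 h and 72 h. Against the lowest detected signal it was at least 1.36-fold lower at 24 h and at least 1.33-fold lower at 72 h, bounds that carry no test. The limma fit used the undetected signals as measured and gave changes of -0.72 (adjusted p = 2.04e-11) and -0.71 (adjusted p = 2.07e-11). Rpl3 itself, which lies near the catalytic centre, changed by 0.11, 0.11 and 0.06 (adjusted p = 0.0196, 0.0207 and 0.224), and these values turned negative with 75th percentile scaling.

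Of the 10 measured genes that are paralogs or their parent genes, 5 were higher and 2 lower at 24 h, 3 and 3 at 48 h, and 2 and 3 at 72 h, and with 75th percentile scaling 3 and 4, 1 and 3, and 1 and 5. The called share was 70.0% at 24 h, against 67.0% of all genes, and 60.0% at 48 h, against 72.4%. Rps4x, the X-linked small subunit gene, did not pass at any time (-0.13, -0.05 and -0.03), and its relative Rps4l changed by 0.23, 0.03 and -0.12, with a call at 24 h (adjusted p = 0.00183). Rpl26 changed by 0.14, 0.18 and 0.25 (adjusted p = 0.0285, 0.00431 and 8.77e-05), with negative values at 24 h and 48 h under 75th percentile scaling. Rpl39, a short protein of the exit tunnel, did not pass at any time (-0.07, 0.09 and 0.01), nor did Rpsa, a small subunit protein also described as a laminin receptor (-0.12, -0.13 and -0.07), whose probe was detected on 18 of 24 arrays. A list of members with roles outside the ribosome, not a complete one (Rpsa and Rps7 are not on it), had 8 measured genes: Rpl13a, Rpl22, Rpl23, Rpl26, Rps14, Rps19, Rps3 and Rps6. Of these, 4 were higher and 0 lower at 24 h, 5 and 1 at 48 h, and 5 and 2 at 72 h. With 75th percentile scaling these counts were 3 and 1, 1 and 2, and 1 and 2. With quantile normalization the called share of these 8 genes at 24 h was below the 67.0% of all genes. At 48 h it was slightly above the 72.4% of all genes, and at 72 h it was 87.5%, against 73.5%. Whether these 8 genes differ from all genes was not tested.

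By subunit, the counts of calls were as follows. Of 23 small subunit genes, 8 were higher and 2 lower at 24 h, 6 and 5 at 48 h, and 7 and 3 at 72 h. Of 30 large subunit genes outside the stalk, 12 were higher and 1 lower at 24 h, 9 and 9 at 48 h, and 8 and 9 at 72 h. Their median changes were 0.03, 0.02 and -0.01 for the small subunit and 0.05, 0.04 and 0.00 for the large subunit. With 75th percentile scaling the small subunit had 4 higher and 9 lower at 24 h, 0 and 9 at 48 h, and 0 and 8 at 72 h, and the large subunit 7 and 13, 2 and 11, and 2 and 13. The called share was 43.5%, 47.8% and 43.5% in the small subunit and 43.3%, 60.0% and 56.7% in the large subunit, against 67.0%, 72.4% and 73.5% of all genes. The subunits were not tested against each other.

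Among the members, bright probes had smaller median changes than dim ones, a difference that was not tested. The highest deposited signal on any array was 38468, and the probes of 33 members reached 20000, a value chosen here. Of these 33, the share called at 24, 48 and 72 h was 30.3%, 45.5% and 42.4%, with a median size of change of 0.06, 0.10 and 0.08. Of the other 23 members, 60.9%, 65.2% and 60.9% were called, with a median size of 0.23, 0.18 and 0.23. Among 9712 other genes whose probes stayed below 20000, 67.2%, 72.4% and 73.6% were called, with a median size of 0.24, 0.28 and 0.31. Among 149 genes outside the family whose probes also reached 20000, 68.5%, 75.8% and 75.8% were called, with a median size of 0.23, 0.30 and 0.32. A probe counted as bright by its highest signal on any array, so a gene that changes can enter through the time at which it is high. Changes from 0 h among these 149 genes ran from -4.77 to 3.17. The bright and dim sets are thus not independent of the changes. Whether signals near the top of the range are compressed for the members was not tested.

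**Figure D3:**
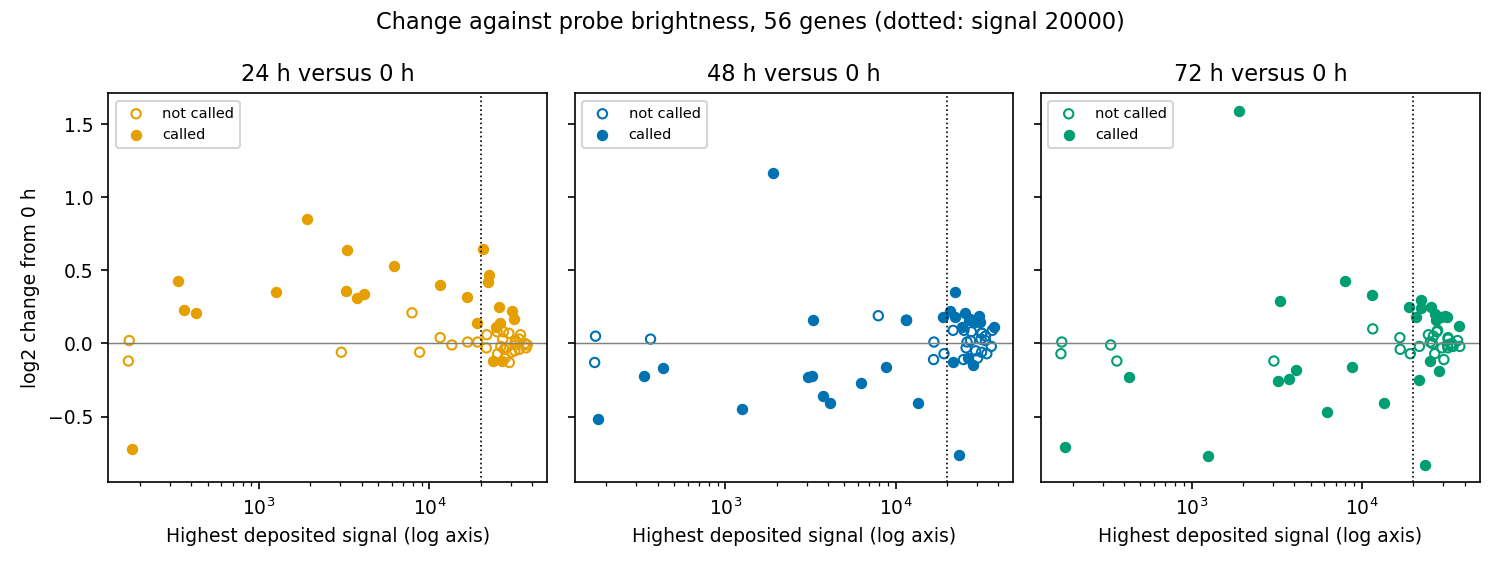
Each point is 1 of the 56 genes, with the highest deposited signal of its probe on a log axis and its log2 change from 0 h at 24, 48 and 72 h in the 3 panels, filled where called. To the right of the dotted line at 20000 the 33 points lie close to 0 with Rps6 (24 h) and Rps27l (48 h and 72 h) as the points farthest from it. Rps6 passes the line narrowly (20730), and its mean normalized log2 signal was 13.57 at 0 h and 14.22 at 24 h.

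Probes of the same gene often disagreed. For 16 members more than 1 probe was kept, and all probes of a gene had the same call for 7 of them at 24 h, 4 at 48 h and 5 at 72 h. Counted by probe, 37 of 77 were higher and 3 lower at 24 h, where 65.0% of all kept probes were called in either direction. At 48 h it was 19 and 24 (69.3% of all kept probes), and at 72 h 23 and 20 (71.2%). With 75th percentile scaling the counts by probe were 23 and 24, 4 and 34, and 7 and 33, and with cyclic loess 46 and 1, 30 and 22, and 39 and 17. Median scaling gave 30 and 7, 5 and 29, and 5 and 31, and the authors' processed values gave 31 and 7, 8 and 26, and 14 and 25. The largest gap between probes of 1 gene was 0.90 at 24 h (Rps24) and 1.5 and 1.29 at 48 h and 72 h (Rpl38).

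Rpl38, a large subunit protein that mouse embryos need for the translation of Hox mRNAs, showed both courses. Its brighter probe changed by -0.01, 0.07 and 0.03 at 24, 48 and 72 h, with no call. The dimmer probe, also detected on all 24 arrays and annotated to the same transcript, changed by 0.12, -1.43 and -1.26 (adjusted p over all kept probes = 0.0263, 1.08e-23 and 2.74e-22). Which of these follows the main transcript cannot be told from the tables.

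Rps24, a small subunit protein with several splice forms and a Diamond-Blackfan anaemia gene in humans, had 3 kept probes that name different transcripts. The brightest changed by -0.12, -0.10 and -0.07, the second by 0.78, -0.22 and -0.39, and the dimmest by 0.44, 0.09 and 0.42. At 24 h and 72 h these probes were called in opposite directions. Rpl23, which can bind Mdm2, had no probe called lower than at 0 h with quantile normalization, with changes of 0.03, 0.16 and 0.20 for the brightest, 0.71, 0.23 and 0.26 for the second, and 0.20, 0.78 and 1.24 for the dimmest. Over the scalings the 24 h change of the brightest ran from -0.17 to 0.10, with calls in both directions.

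A second probe of Rpl29 changed by 0.85, -0.34 and -0.24, so the rise at 24 h rested on that probe and the fall at 48 h and 72 h was seen with both. For Rps19, another Diamond-Blackfan anaemia gene, the bright probe changed by 0.03, 0.02 and -0.02, and a dim probe by 0.35 at 24 h. The dim probe was detected on 6 of 6 arrays at 0 h and 24 h and on 0 of 6 at 48 h and 72 h, where it was at least 1.45-fold and 1.44-fold lower than at 0 h. The probes of Rps2, both with highest signals near the top of the range (36930 and 36948), were called in opposite directions at 72 h, at 0.12 and -0.21. The second probe of Rpl30 changed by 0.32, -0.02 and 0.25, opposite to the first at 72 h. In contrast, the 3 probes of Rpl21 changed by 0.18 to 0.25 at 24 h and by -0.15 to -0.17 at 48 h, and both probes of Rps13 and of Rps9 were higher at 24 h and 72 h.

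**Figure D4:**
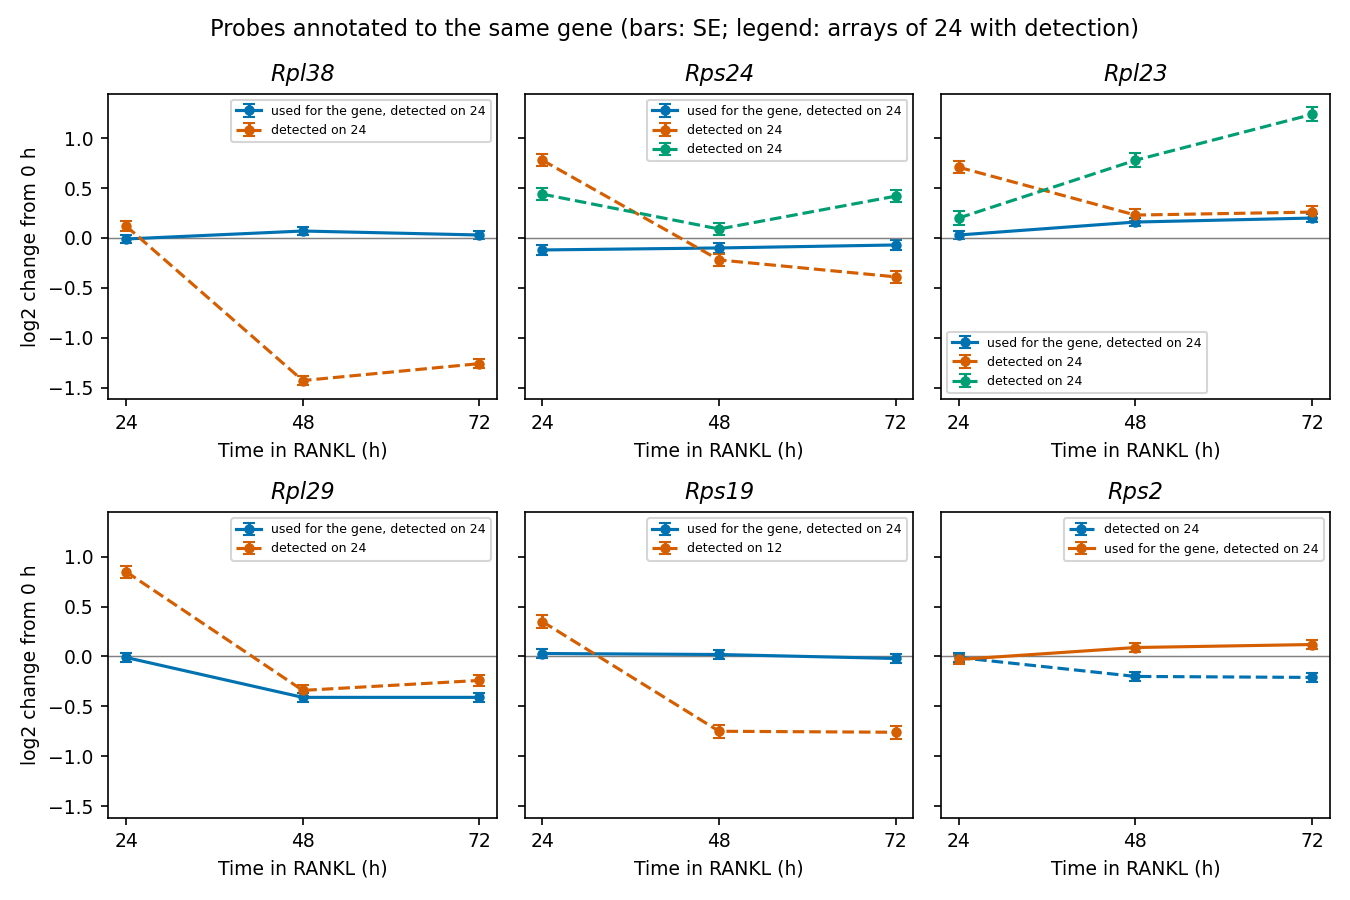
Lines join the log2 changes from 0 h at 24, 48 and 72 h of each kept probe of 6 genes, with SE bars, and the solid line is the probe that stands for the gene. For Rpl38 the lines part by 1.5 at 48 h, for Rps24 they lie on both sides of 0, and the dashed Rps19 probe was not detected at 48 h and 72 h.

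The genes that build ribosomes had larger median changes than the ribosomal proteins. Of 52 measured genes of ribosome biogenesis, 48 were higher and 1 lower at 24 h, 3 and 38 at 48 h, and 9 and 36 at 72 h, with median changes of 0.44, -0.37 and -0.34. Ncl, the nucleolar protein nucleolin, changed at 24 h by 1.41 (adjusted p = 1.73e-22) and at 48 h by -0.27, and Nop56, a core protein of the box C/D snoRNPs, by 1.17 and -0.34. Rrn3, which brings RNA polymerase I to the rDNA, was lower at each time (-0.14, -0.53 and -0.66), and Pes1, needed for the large subunit, did not pass at 24 h (0.10). The balance of the list held under all 6 scalings, with 42 to 51 genes higher at 24 h and 36 to 40 lower at 48 h. Its called share with quantile normalization was 94.2%, 78.8% and 86.5%, against 67.0%, 72.4% and 73.5% of all genes.

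Of 72 measured mitochondrial ribosomal protein genes, 31 were higher and 7 lower at 24 h, 6 and 62 at 48 h, and 5 and 61 at 72 h, with median changes of 0.10, -0.42 and -0.45. At 24 h the 75th percentile gave 16 higher and 18 lower in this list. Of 31 initiation factor genes, 22 were higher and 2 lower at 24 h, 7 and 18 at 48 h, and 7 and 20 at 72 h, and with the 75th percentile 14 and 4, 3 and 21, and 4 and 22. Eif4b, which assists the mRNA helicase, changed by 1.05, 0.86 and 0.96, and Eif6, which keeps free large subunits from joining small ones, by 0.65, -0.70 and -0.70. With quantile normalization the called share was 52.8%, 94.4% and 91.7% for the mitochondrial ribosomal proteins and 77.4%, 80.6% and 87.1% for the initiation factors. A test of these lists against the ribosomal proteins was not run.

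Of 20 other genes whose mRNAs carry the TOP motif, 12 were higher and 0 lower at 24 h, 6 and 5 at 48 h, and 7 and 6 at 72 h. With the 75th percentile these counts were 8 and 5, 3 and 9, and 4 and 9. With quantile normalization the called share of these 20 genes was below that of all genes at each time. It was 60.0% at 24 h, against 67.0%, and 65.0% at 72 h, against 73.5%. At 48 h, 72.4% of all genes were called. Eef2, the translocation factor of elongation, changed by 1.73, 1.57 and 1.78, and Hnrnpa1, an RNA-binding protein, by 1.18, -0.20 and -0.99. Eef1a1, which brings aminoacyl-tRNA to the ribosome, did not pass at any time (-0.03, -0.02 and -0.03). Of 24 genes of the TOR pathway and of transcriptional or mRNA regulators of ribosomal proteins, 12 were higher and 6 lower at 24 h, 5 and 11 at 48 h, and 7 and 10 at 72 h. The called share of these 24 genes was above the 67.0% of all genes at 24 h. It was below the 72.4% and 73.5% of all genes at 48 h and 72 h. Neither list was tested against all genes. Myc, a transcription factor of growth, changed by 1.17, -0.70 and -0.68, and Larp1, which binds the TOP motif, by 0.74, 0.08 and 0.12, the last 2 without a call. Akt1s1, an inhibitory part of mTORC1, was lower at each time (-0.56, -0.46 and -0.58).

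**Figure D5:**
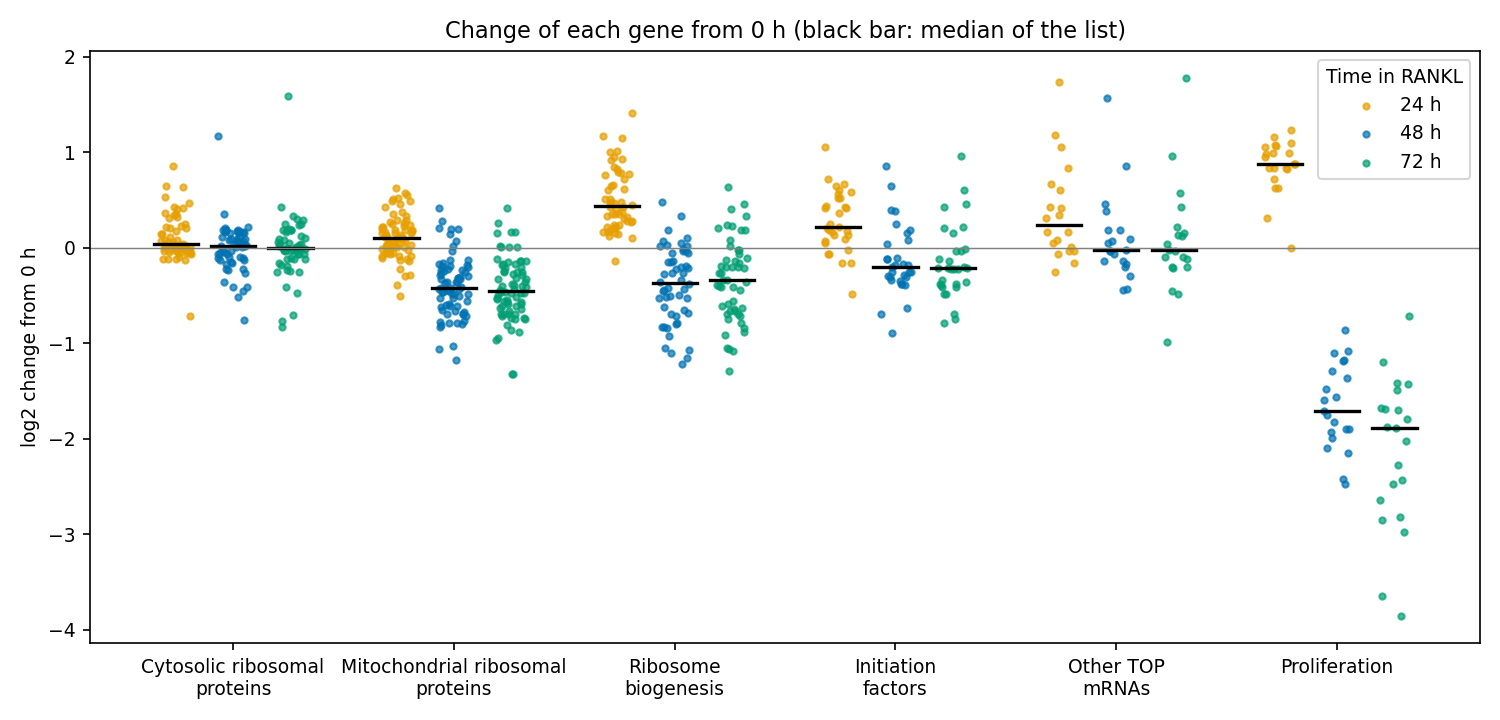
Each point is a gene and its height the log2 change from 0 h, in colours for 24, 48 and 72 h, with a black bar at the median of each list. The medians of the cytosolic ribosomal proteins stay within 0.03 of 0, whereas those of ribosome biogenesis are 0.44, -0.37 and -0.34 and those of proliferation genes 0.88, -1.71 and -1.89.

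Markers of dividing cells and of other cells of the marrow moved over the same times. Among all genes, 29.2%, 33.1% and 34.2% were higher and 37.8%, 39.2% and 39.4% lower at 24, 48 and 72 h. Of 21 proliferation genes, 20 were higher at 24 h, and 21 were lower at 48 h and at 72 h. Their summed normalized signal ranged from 38970 to 41057 at 0 h, 71314 to 74942 at 24 h, 12527 to 13177 at 48 h and 9468 to 10015 at 72 h. Of 12 neutrophil genes all were lower at each later time, with sums of 60823 to 65868 at 0 h, 26234 to 27676 at 24 h, 23673 to 25097 at 48 h and 11161 to 12533 at 72 h. Of 9 osteoclast genes 7 were higher at each later time (and 1 lower at 72 h), and their sums were 30371 to 35357 at 0 h, 36233 to 39455 at 24 h, 63745 to 69694 at 48 h and 54040 to 58970 at 72 h. Of 10 macrophage markers 3 were higher and 3 lower at 24 h, 6 and 1 at 48 h, and 5 and 3 at 72 h, and they summed to 48760 to 53635 at 0 h, 47559 to 50502 at 24 h, 60772 to 66823 at 48 h and 56691 to 60474 at 72 h. Of 4 erythroid and megakaryocyte genes all were lower at each time, and of 4 mast cell and basophil genes 2, 3 and 3 were lower at 24, 48 and 72 h and none higher. Of 4 stromal genes, 2 were lower at 24 h and 3 were higher at 48 h and at 72 h, with sums of 565 to 648 at 0 h, 473 to 554 at 24 h, 867 to 988 at 48 h and 1270 to 1411 at 72 h. The 1 measured T and NK lymphocyte gene was lower at each time, and of 2 B lymphocyte genes 2, 1 and 1 were lower. The part of these cell changes in the ribosomal protein values was not tested.

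Array by array, the median deposited signal lay between 89.5 and 122 and the number of detected probes between 15781 and 17109. Within a time, any pair of arrays correlated at 0.994 to 0.998 (Pearson's r across genes, which are not independent replicates).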

How the data were processed

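The authors extracted the deposited signal intensities with Illumina GenomeStudio, per their methods, with no normalization between arrays. The deposited detection p-values were computed by the authors with the same software for each probe on each array. A further deposited table holds log2 values that the authors processed. Their methods state a log transformation and quantile normalization, but array medians of 1.90 to 1.99 and upper quartiles of 2.89 to 3.12 differ between its columns, so quantile normalization does not show in it. Its values rise with the signals of the same arrays, and its constant and centring are unknown. All columns had a sample (0 without one). Here the intensities of 24 arrays were log2 transformed and quantile normalized with limma 3.58.1 in R 4.3.3. A probe was kept if its detection p was below 0.05 on 3 or more arrays of any one time, and the kept probe of highest mean stood for its gene. Symbols came from the platform annotation (1 symbol for 34885 probes, several for 18, none for 10378), and all 62 member symbols were in the RefSeq list for GRCm38.p6.

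lmFit, contrasts and eBayes with a trend were run over all arrays (20 residual degrees of freedom), with Benjamini-Hochberg adjustment across every gene or probe of a comparison. The fit was tested on simulated data. A fold against undetected probes was taken, per array, against the larger of its own signal and the faintest signal among detected probes. The number of arrays limits the precision. The members, lists and alternatives were chosen with earlier results of these data known. Genes were named by rule: up to 5 rises and 5 falls per time without overlap with 0 h, the stalk, Rpsa, Rps6, paralogs, members with opposed probes, and up to 2 rising, 2 falling and 2 uncalled genes of other lists. Other members were named after their values were seen. Alternatives were other scalings, filters, probe choices, fits and thresholds, and each replicate number left out. A list of ubiquitin carriers had 0 measured genes. Replicate numbers were checked for pairing. Figures were drawn with matplotlib 3.10.9.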

Additional observations from a re-analysis of the deposited data

Results flagged for a closer look

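Among 104 groups of 6 arrays (26 named members at 4 times), 7 had 1 array set apart from the other five by more than Dixon's critical share of the range, where chance gives about 1 in 20, or 5.2. The lowest arrays were replicate 4 of Rpl24 at 48 h (12.97, next 13.10), replicate 4 of Rpl29 at 72 h (12.92, next 13.05), replicate 3 of Rps13 at 0 h (13.59, next 13.69) and replicate 3 of Rps9 at 72 h (14.62, next 14.70). The highest were replicate 1 of Rpl4 at 72 h (11.10, next 10.96), replicate 2 of Rplp2 at 72 h (14.71, next 14.44) and replicate 4 of Rps4l at 48 h (8.32, next 8.11).

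By the probe that stands for each gene, Rpl13a, Rpl30, Rpl7l1 and Rplp0 were called higher at 24 h and lower at 48 h than at 0 h. The rule that flagged them was run on the named members and also required a called difference between both times. That call is therefore no separate result. Opposite calls of this kind were made for 7 of the 56 members and for 11.8% of all genes. The 48 h level minus the 24 h level was -0.80 for Rpl13a, -0.76 for Rpl30, -0.58 for Rpl7l1 and -0.81 for Rplp0 on the log2 scale.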

How the results depend on the processing

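Of the alternatives, normexp background correction, eBayes without trend, array weights, the 12 arrays of the times compared and the fit with the replicate number as a block kept every total count of calls within 1.5 times, although with array weights 11 genes in place of 7 were higher at 48 h than at 24 h. No label ties a replicate number to a shared mouse, batch or day, so the samples were taken to share only a number (22 of 36 same-number pairs had a correlation over 0.1, from -0.21 to 0.49, and 10 of 24 arrays correlated best with their own number, and the 6 pairs of replicate 4 lay at 0.21 to 0.49, a hint of pairing from the data), and with the replicate block 26, 35, 30, 30 and 13 genes were called at 24, 48 and 72 h against 0 h, 48 h against 24 h and 72 h against 48 h, and 42, 49 and 46 probes against 0 h. With each replicate number left out in turn these counts ran from 20 to 24, 27 to 34, 26 to 29, 24 to 28 and 7 to 12 genes, and 34 to 40, 38 to 47 and 41 to 45 probes. A fold of at least 1.2 left 14, 9, 11, 14 and 2 genes and 24, 15 and 20 probes, and a fold of at least 1.5 left 4, 2, 4, 6 and 0 genes and 7, 5 and 7 probes. The methods' t-test with Bonferroni adjustment over all genes left 8, 4, 5, 9 and 1 genes and 9, 8 and 8 probes. With the second-highest probe, which only 16 members have, 11, 10, 13, 12 and 4 were called. At 72 h against 48 h 6 were called with 75th percentile scaling, 6 with median scaling, 5 with the authors' processed values and 7 by the methods' t-test with Benjamini-Hochberg adjustment. Apart from the gene counts at the fold limits, these counts stand without the share of all genes called in the same setting. They show how far the member counts moved, and no comparison with all genes is drawn from them. Log2 changes from 0 h that turned sign, called in at least one of both fits, were: with 75th percentile scaling, Rpl24 at 48 h (-0.04), Rpl26 at 24 h (-0.11), Rpl26 at 48 h (-0.07), Rpl3 at 24 h (-0.09), Rpl3 at 48 h (-0.10), Rpl3 at 72 h (-0.11), Rpl39 at 72 h (-0.15), Rps13 at 48 h (-0.07), Rps6 at 48 h (-0.05), Rps6 at 72 h (-0.05) and Rps7 at 48 h (-0.01). With median scaling, Rpl24 at 48 h (-0.01), Rpl26 at 24 h (0.00), Rpl26 at 48 h (-0.04), Rpl3 at 48 h (-0.07), Rpl39 at 72 h (-0.16), Rps13 at 48 h (-0.05), Rps6 at 48 h (-0.03) and Rps6 at 72 h (-0.06). With the authors' processed values, Rpl3 at 48 h (-0.03) and Rps13 at 48 h (0.00). With cyclic loess, Rplp1 at 48 h (0.17), Rps24 at 24 h (0.01), Rps24 at 48 h (0.04) and Rps4x at 72 h (0.15). With the mean of the kept probes, Rpl29 at 24 h (0.42), Rpl30 at 72 h (0.04), Rps2 at 72 h (-0.04) and Rps24 at 24 h (0.37). With the second-highest probe, Rpl29 at 24 h (0.85), Rpl30 at 72 h (0.25), Rpl7l1 at 24 h (-0.03), Rpl7l1 at 72 h (0.03), Rps2 at 48 h (-0.20), Rps2 at 72 h (-0.21) and Rps24 at 24 h (0.78). With the brightest probe below 20000, Rps24 at 24 h (0.78). The cause of these turns was not tested. Of the other values of named members under the alternatives, 1440 stayed on their side of the threshold, 108 lost the call and 35 gained it. A change of sign that neither fit called was not counted as a turn, so the 1440 can include such changes. Signals near the top of the range and probes near the detection limit bound what the arrays can show.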
